A study of Mus musculus with 6 samples.

Results

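The levels of 5 genes for secreted digestive enzymes were followed in spleen RNA of NOD mice, which become diabetic without treatment by an autoimmune attack on the islets. They are the pancreatic amylase Amy2a5, the carboxypeptidases Cpa1 and Cpb1, the pancreatic ribonuclease Rnase1, and Amy1, the amylase of salivary gland and liver, taken as the amylase made outside the pancreas. The members were chosen by name, with their levels on these arrays already known, and every probe set annotated to them by a current or an older symbol was taken. This gave 5 genes and 6 probe sets, of 18193 genes that have a probe set of their own and 45037 probe sets tested. The probe set of Amy2a5 names 5 copies of the gene, Amy2a1 to Amy2a5, which it cannot tell apart, and it is called the Amy2a probe set here. Cpa1, Cpb1 and Rnase1 had 1 probe set each that names no other gene. Amy1 had a probe set of its own and a second one that also names its neighbour Rnpc3, a gene for a protein of the minor spliceosome, and whose signal cannot be assigned to either gene.

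The arrays compared 3 groups of female NOD mice. TSA-treated mice had received trichostatin A, an inhibitor of histone deacetylases, under the skin at 500 µg/kg once a week between 18 and 24 wk of age, and treated mice that had diabetes were left out. Untreated diabetic mice and untreated non-diabetic mice were the other groups. The labels give an age of 32 to 36 wk and a pool of 3 to 5 mice for every group, whereas the methods give other ages and pool sizes and younger diabetic mice. Age and disease therefore cannot be fully told apart. The labels name splenocytes, and the methods describe whole spleens lysed one by one, with the RNA of a group then combined into 1 pool, labelled in duplicate and put on 2 Affymetrix mouse genome arrays. The 2 arrays of a group are therefore repeat measurements of 1 pool. Every SD and p-value below measures the spread between hybridizations and not that between mice. In RNA of a whole organ, fewer cells of a type and less RNA per cell cannot be told apart.

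The acinar cells of the exocrine pancreas make digestive enzymes, store them in zymogen granules and release them into the gut. Pancreatic amylase cuts starch, carboxypeptidase A1 takes aromatic and aliphatic residues and carboxypeptidase B1 takes basic residues from the end of a peptide, and ribonuclease 1 degrades RNA. The carboxypeptidases are made as inactive zymogens that trypsin activates, and genes of this kind are switched on together by PTF1, a factor that reads an E-box and a TC-box next to each other.

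The start regions of the members are shown as a description, as the 4 pancreatic genes moved together while Amy1's own probe set stayed dim. Whether these sequences had a part in the levels was not tested. The windows come from RefSeq (GRCm38.p6, strain C57BL/6J and not NOD) and run from 250 bases before to 50 bases after each annotated start. Capitals mark matches on either strand. The E-box was searched as CANCTG. The TC-box was searched as TTTCCC. The TATA box was searched as TATAAA. No match overlaps another. Windows were found for all 5 genes, with 2 starts for Amy1. They lie at chr3:113258650-113258949 (minus strand, Amy2a5), chr6:30638968-30639267 (plus strand, Cpa1), chr3:20275684-20275983 (minus strand, Cpb1), chr14:51146718-51147017 (minus strand, Rnase1), and chr3:113577701-113578000 and chr3:113574713-113575012 (both minus strand, Amy1).
Amy2a5: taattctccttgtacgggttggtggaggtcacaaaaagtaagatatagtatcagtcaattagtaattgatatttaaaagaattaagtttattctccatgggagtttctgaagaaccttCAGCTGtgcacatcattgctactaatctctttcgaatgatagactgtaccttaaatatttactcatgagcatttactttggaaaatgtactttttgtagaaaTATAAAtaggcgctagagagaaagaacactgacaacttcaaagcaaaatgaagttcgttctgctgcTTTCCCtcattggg
Cpa1: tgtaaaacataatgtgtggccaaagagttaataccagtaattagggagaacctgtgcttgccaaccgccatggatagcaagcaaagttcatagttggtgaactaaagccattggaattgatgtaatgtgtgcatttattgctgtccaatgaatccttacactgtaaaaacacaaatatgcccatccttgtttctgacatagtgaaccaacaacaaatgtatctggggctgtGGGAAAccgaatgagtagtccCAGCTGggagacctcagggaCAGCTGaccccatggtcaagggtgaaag
Cpb1: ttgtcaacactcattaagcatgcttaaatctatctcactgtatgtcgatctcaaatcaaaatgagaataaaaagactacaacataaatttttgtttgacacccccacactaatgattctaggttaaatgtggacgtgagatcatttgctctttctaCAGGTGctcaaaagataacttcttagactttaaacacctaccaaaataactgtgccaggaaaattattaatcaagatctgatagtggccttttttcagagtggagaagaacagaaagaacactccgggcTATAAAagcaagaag
Rnase1: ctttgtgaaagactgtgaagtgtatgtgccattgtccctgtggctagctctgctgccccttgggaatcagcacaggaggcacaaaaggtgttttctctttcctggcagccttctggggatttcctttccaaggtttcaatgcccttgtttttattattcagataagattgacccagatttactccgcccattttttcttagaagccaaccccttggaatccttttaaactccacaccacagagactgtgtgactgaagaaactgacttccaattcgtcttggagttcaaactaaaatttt
Amy1 start 1: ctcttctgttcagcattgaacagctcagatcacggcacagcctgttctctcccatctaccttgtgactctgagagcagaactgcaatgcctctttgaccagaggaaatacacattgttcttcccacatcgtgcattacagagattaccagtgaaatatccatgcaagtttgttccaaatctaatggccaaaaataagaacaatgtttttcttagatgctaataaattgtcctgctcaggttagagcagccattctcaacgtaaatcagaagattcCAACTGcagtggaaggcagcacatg
Amy1 start 2: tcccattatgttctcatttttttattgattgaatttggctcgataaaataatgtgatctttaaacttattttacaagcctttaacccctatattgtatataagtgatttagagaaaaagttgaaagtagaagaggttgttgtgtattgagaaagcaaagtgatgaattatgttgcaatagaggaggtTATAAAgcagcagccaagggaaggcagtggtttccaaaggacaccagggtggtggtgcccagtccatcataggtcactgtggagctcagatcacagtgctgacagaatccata

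Amy2a5 held all 3 kinds of match, with an E-box at -132 to -127, a TATA box at -30 to -25 and a TC-box at +37 to +42, counted from the annotated start. These E-box and TC-box matches lie on either side of the TATA box and are not next to each other. Only exact matches were searched, so a TC-box that departs from TTTCCC would be missed in any window. Binding of PTF1 was not tested. Cpa1 held a TC-box at -19 to -14 and E-boxes at +3 to +8 and +23 to +28, and no TATA box. Cpb1 held an E-box at -94 to -89 and a TATA box at +36 to +41, downstream of its annotated start. No match was found in the Rnase1 window. The first Amy1 start had 1 E-box and the second 1 TATA box, and neither had a TC-box. Of all 32851 RefSeq windows of this length, 51.4% held an E-box, 25.2% a TC-box, 13.6% a TATA box and 1.60% all of them, at any spacing.

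The Amy2a copies that share the probe set also share this sequence. The windows of Amy2a2, Amy2a3 and Amy2a4 were identical over 300 bases. Each shared an unbroken run of 162 bases with the Amy2a5 window, which spans -250 to -89 of that window and holds its E-box. In these copies the run lies at -112 to +50, since their annotated starts are farther upstream. Amy2a1 shared 154 bases and Amy2b, a further pancreatic amylase gene with no probe set in the annotation used, shared 58 around the start. Signal of the Amy2a probe set is that of the cluster and not of 1 gene.

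Spleens of untreated diabetic mice had far more RNA of the 4 pancreatic genes than those of untreated non-diabetic mice, and spleens of TSA-treated mice lay in between. Levels are log2 values on which a difference of 1 is a doubling. The medians of the 6 arrays ran from 3.79 to 3.95, and a level near them is close to background. Since these levels led to the choice of the genes, they are given as a description with no test.

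The Amy2a probe set, for the amylase that cuts starch in the gut, read 10.55 and 10.07 on the arrays of TSA-treated mice. It read 12.91 and 13.17 in untreated diabetic mice and 4.60 and 4.47 in untreated non-diabetic mice. The untreated diabetic arrays were highest and the untreated non-diabetic arrays lay within 1 unit of their medians, with no overlap between any 2 groups. The difference of untreated diabetic over untreated non-diabetic mice was 8.51 ± 0.22 (SE), a 364-fold excess. In TSA-treated mice it was 5.78 ± 0.22 over untreated non-diabetic mice, or 54.8-fold, and the level was 6.64-fold lower than in untreated diabetic mice.

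Cpa1, which removes aromatic and aliphatic residues, read 8.83 and 8.08 in TSA-treated, 11.71 and 11.82 in untreated diabetic and 4.90 and 4.67 in untreated non-diabetic mice. The groups did not overlap, and the 2 TSA-treated arrays were farther apart than those of any other pancreatic member in any group. The untreated diabetic difference from untreated non-diabetic mice was 6.98 ± 0.27, or 126-fold. TSA-treated mice were 3.66 above untreated non-diabetic mice (12.7-fold) and 3.31 below untreated diabetic mice (9.95-fold), the widest gap between these 2 groups among the members.

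Cpb1, its partner for basic residues, read 9.07 and 9.11 in TSA-treated, 11.26 and 11.53 in untreated diabetic and 3.91 and 3.82 in untreated non-diabetic mice. The untreated non-diabetic arrays were at their own medians, 0.01 above on one and 0.10 below on the other. Their value is therefore close to a floor, and the folds over it are compressed. Cpb1 was 7.53 ± 0.17 higher in untreated diabetic than in untreated non-diabetic mice, or 185-fold, and 5.23 higher in TSA-treated mice, or 37.4-fold. Between TSA-treated and untreated diabetic mice the level was 2.30 lower, or 4.94-fold, and the TSA-treated arrays differed by 0.04.

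Rnase1, the ribonuclease of pancreatic juice, read 8.35 and 8.07 in TSA-treated, 10.69 and 10.74 in untreated diabetic and 5.38 and 5.29 in untreated non-diabetic mice. It again showed 3 separate groups in the same order. Untreated diabetic mice were 5.38 ± 0.17 above untreated non-diabetic mice, or 41.6-fold, the smallest such difference of the pancreatic members. TSA-treated mice were 2.87 above untreated non-diabetic mice (7.33-fold) and 2.51 below untreated diabetic mice (5.68-fold). Its untreated non-diabetic arrays stood 1.37 and 1.49 above their medians, farther than those of any other member. Rnase1 is also known from vascular endothelium. The endothelial markers were Pecam1, Cdh5, Kdr and Emcn. Their summed level was 6.40 to 6.80 in TSA-treated, 7.08 to 7.11 in untreated diabetic and 7.61 to 7.62 in untreated non-diabetic mice. None of the 4 was called by limma, with 1 at an unadjusted p under 0.05 in each comparison. Emcn lay below every array median, and Pecam1 read 5.13 and 3.06 on the TSA-treated arrays. The part of endothelial RNA in the Rnase1 level was not tested.

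**Figure D1:**
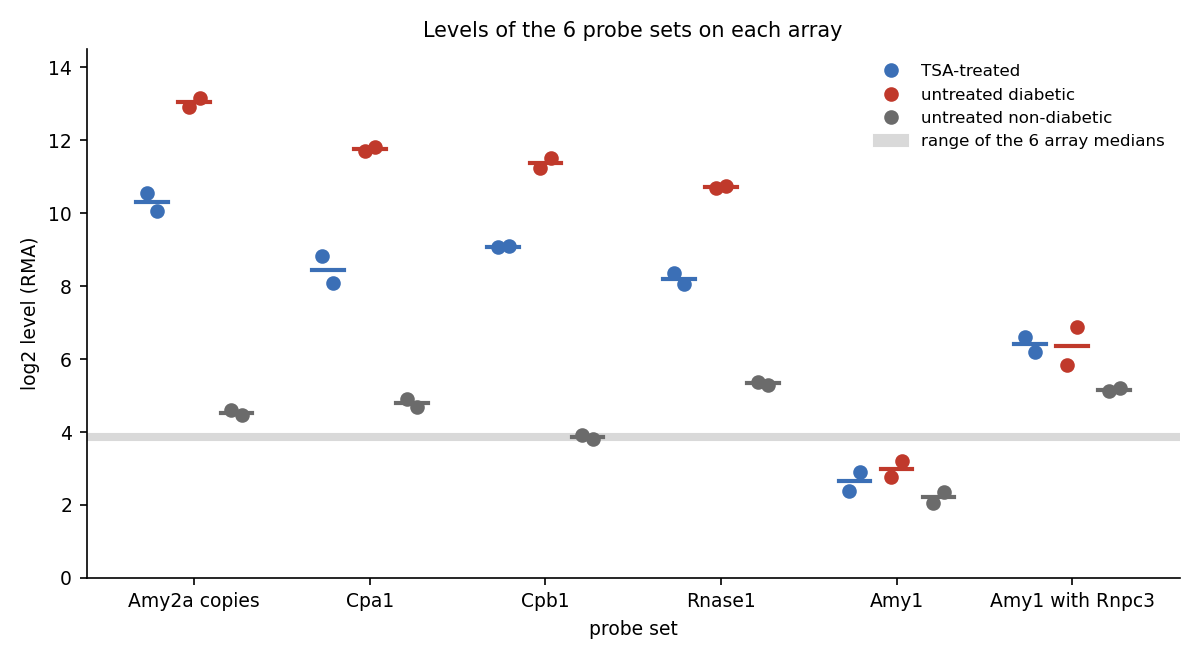
Log2 level (vertical axis) of the 6 probe sets on each array, with 1 point per array, a bar at each group's mean and a grey band for the range of the array medians. For the Amy2a copies, Cpa1, Cpb1 and Rnase1 the TSA-treated arrays lie between 8.07 and 10.55 and below the untreated diabetic arrays, which lie between 10.69 and 13.17, and all untreated non-diabetic arrays are at or under 5.38, whereas Amy1's own probe set stays under the band and the one shared with Rnpc3 above it on every array.

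Amy1 did not share this pattern. Its own probe set read 2.39 and 2.91 in TSA-treated, 2.76 and 3.20 in untreated diabetic and 2.05 and 2.36 in untreated non-diabetic mice. All 6 values lay 0.59 to 1.84 below the median of their array, so the order of the groups is that of a dim probe set. TSA-treated and untreated diabetic arrays overlapped, and the nearest TSA-treated and untreated non-diabetic arrays were 0.03 apart. Untreated diabetic mice differed from untreated non-diabetic mice by 0.77 ± 0.26, or 1.71-fold, TSA-treated from untreated non-diabetic mice by 0.45, and TSA-treated from untreated diabetic mice by -0.33.

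The probe set shared by Amy1 and Rnpc3 read 6.62 and 6.19 in TSA-treated, 5.83 and 6.89 in untreated diabetic and 5.12 and 5.20 in untreated non-diabetic mice. The 2 untreated diabetic arrays bracket both TSA-treated ones. Its differences were 1.20 for untreated diabetic over untreated non-diabetic mice, 1.24 for TSA-treated over untreated non-diabetic mice and 0.04 for TSA-treated over untreated diabetic mice. A set of 8 genes that mark salivary gland, among them Smr2 and Bpifa2, reached at most 4.38 on any array, and 5 liver genes at most 4.94. Markers of the organs that use Amy1 were thus near background in every group, and none was called in any comparison by limma or passed an unadjusted p of 0.05.

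**Figure D2:**
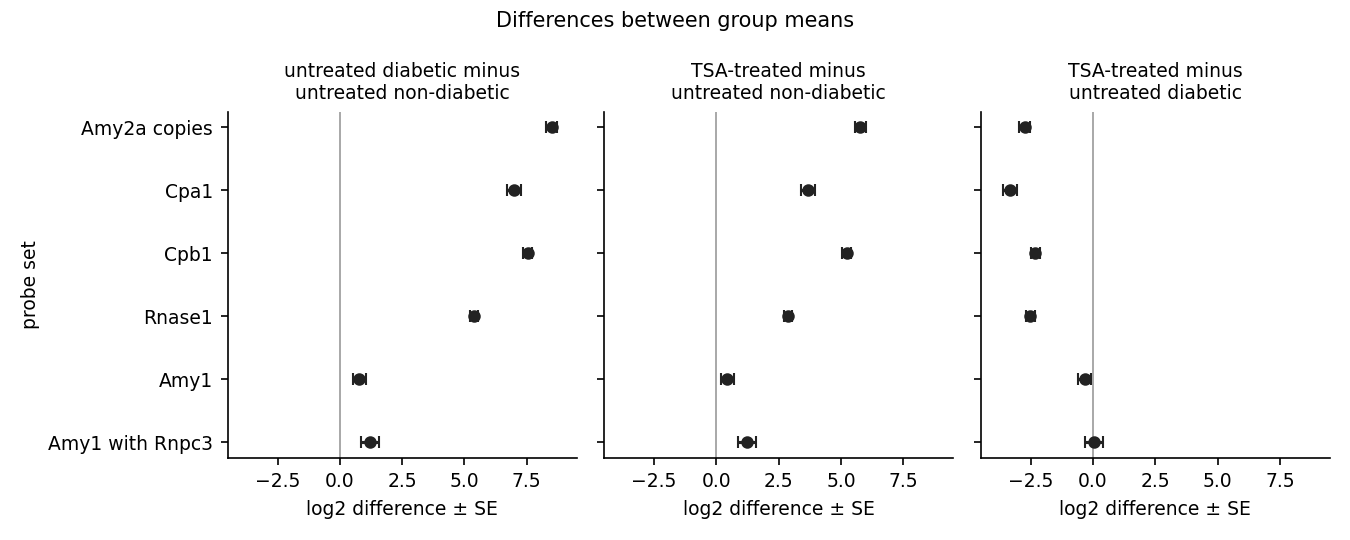
Log2 differences between the groups (horizontal axis) with their SE from limma, for the 6 probe sets, in the 3 comparisons. The 4 pancreatic probe sets lie between 5.38 and 8.51 in untreated diabetic minus untreated non-diabetic mice, between 2.87 and 5.78 in TSA-treated minus untreated non-diabetic mice and between -3.31 and -2.30 in TSA-treated minus untreated diabetic mice, and both Amy1 probe sets lie between -0.33 and 1.24 throughout.

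Counted by limma at an adjusted p under 0.05, 4 of the 5 members were called higher in untreated diabetic than in untreated non-diabetic mice, where 0.0866% of all probe sets were called higher (39 of 45037) and 0.00222% lower. The same 4 genes were called higher in TSA-treated than in untreated non-diabetic mice, beside 0.0577% of all probe sets (26), and none lower, beside 0.0111%. Cpb1 and Rnase1 were called lower in TSA-treated than in untreated diabetic mice, beside 0.0244% of all probe sets (11), and none higher, beside 0.00222%. Nothing is read from these counts, as the same values chose the genes. Both comparisons with untreated non-diabetic mice use the same 2 arrays of that group. The member calls of the second comparison did not hold without either one of them, while those of the first held. In the third comparison the member calls changed whichever array was left out. Such a fit leaves 1 array in a group, so its counts are not given. Leaving out an array turned no difference of a member: the lowest and highest values were 8.38 and 8.64 for Amy2a, and 6.87 and 7.09 for Cpa1, in untreated diabetic over untreated non-diabetic mice.

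The 4 pancreatic genes differed somewhat in how far their TSA-treated level lay below the untreated diabetic one. The log2 difference of TSA-treated minus untreated diabetic mice was -2.30 for Cpb1, -2.51 for Rnase1, -2.73 for Amy2a and -3.31 for Cpa1. Set against each other within an array, Cpa1 minus Cpb1 was -0.24 and -1.03 in TSA-treated, 0.45 and 0.30 in untreated diabetic and 0.99 and 0.86 in untreated non-diabetic mice. Cpa1 thus stood lower beside Cpb1 in TSA-treated than in untreated diabetic mice, by a mean of 1.01, though the TSA-treated arrays disagreed by most of that amount. Over the other pairs, the same change was 0.58 for Amy2a minus Cpa1, -0.81 for Cpa1 minus Rnase1, -0.43 for Amy2a minus Cpb1, -0.23 for Amy2a minus Rnase1 and 0.20 for Cpb1 minus Rnase1. The pairs without Cpa1 were thus those that changed least. Over untreated non-diabetic mice, the log2 difference in TSA-treated mice was 67.9% of that in untreated diabetic mice for Amy2a, 69.4% for Cpb1, 52.5% for Cpa1 and 53.4% for Rnase1. These shares depend on untreated non-diabetic levels near background for Cpb1 and Amy2a, and nothing is read from their order.

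Measures of RNA quality were poorest on the TSA-treated arrays, and did not split the 2 untreated groups evenly. The spread of duplicates was smallest in untreated non-diabetic mice. The gap between 3′ and 5′ probe sets of beta-actin, which widens as RNA is degraded or copied less far, was 3.45 and 5.61 in TSA-treated, 2.42 and 3.32 in untreated diabetic and 2.35 and 2.05 in untreated non-diabetic mice. That of Gapdh was 3.85 and 4.58 in TSA-treated, 1.82 and 3.19 in untreated diabetic and 2.67 and 1.91 in untreated non-diabetic mice. The 2 untreated groups thus overlapped for Gapdh. For beta-actin, TSA-treated replicate 1 lay close to untreated diabetic replicate 2, at 3.45 and 3.32. In both genes, untreated diabetic replicate 1 lay nearer to the untreated non-diabetic arrays than replicate 2 did. Over all probe sets the SD of the duplicate difference was 0.59 for TSA-treated, 0.52 for untreated diabetic and 0.25 for untreated non-diabetic mice. For the members, replicate 2 minus replicate 1 of the TSA-treated group was -0.48 for Amy2a, -0.75 for Cpa1, 0.04 for Cpb1, -0.28 for Rnase1 and 0.51 for Amy1. The part of RNA quality in the lower TSA-treated levels was not tested.

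Other markers of pancreatic acinar cells, taken as a list, had the same order of groups as the members. Of 16 measured, 12 were called higher in untreated diabetic and 8 in TSA-treated than in untreated non-diabetic mice, and 2 lower in TSA-treated than in untreated diabetic mice. Over all probe sets these shares were 0.0866%, 0.0577% and 0.0244%. Many of the markers, among them Clps, Cel, Ctrl, Ctrb1, Ctrc and Prss2, are on the authors' list of genes raised in untreated diabetic spleens. That list came from these same arrays, so the counts are a description and no test. Their summed level, as log2, was 12.54 to 12.79 in TSA-treated, 15.29 to 15.38 in untreated diabetic and 9.36 to 9.53 in untreated non-diabetic mice. The transcription factors of the acinar cell were not called in any comparison. Ptf1a, the DNA-binding part of PTF1, averaged 3.39 ± 0.13 in TSA-treated, 3.25 ± 0.13 in untreated diabetic and 2.99 ± 0.02 in untreated non-diabetic mice (SD, n = 2 arrays each), below every array median. Bhlha15, which shapes the secretory apparatus, averaged 5.31 ± 0.06 in TSA-treated, 5.40 ± 0.12 in untreated diabetic and 5.50 ± 0.11 in untreated non-diabetic mice. The part that RNA of acinar cells took in the members' levels was not tested.

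Markers of the other pancreatic cell types stayed near background. The islet markers Ins2, Gcg, Sst, Ppy, Iapp and Chga reached at most 4.41 on any array, and the duct markers Krt19, Krt7, Cftr and Sox9 at most 3.66. None of these 10 was called in any comparison by limma, nor passed an unadjusted p of 0.05. The spleen was recognisable in every group. The 7 lymphocyte markers (among them Ms4a1, Cd79a and Cd3e) had a summed level of 11.11 to 12.10 in TSA-treated, 12.60 to 12.71 in untreated diabetic and 12.77 to 12.84 in untreated non-diabetic mice, and 6 red cell and macrophage markers one of 15.13 to 15.24 in TSA-treated, 15.05 to 15.11 in untreated diabetic and 14.99 in untreated non-diabetic mice. None of the 13 was called. At an unadjusted p under 0.05, limma gave 6 of the 7 lymphocyte markers where TSA-treated mice were set against untreated non-diabetic mice. All 7 were lower in TSA-treated mice there, with differences of -3.10 to -0.14. The share of all probe sets under that p was not counted. Of 3 adipocyte markers, Adipoq and Car3 were called lower in TSA-treated mice than in either untreated group. Over all probe sets 0.0111% were called lower against untreated non-diabetic and 0.0244% against untreated diabetic mice. The third marker, Fabp4, was not called. It averaged 6.81 ± 0.27 in TSA-treated, 6.65 ± 0.32 in untreated diabetic and 7.30 ± 0.11 in untreated non-diabetic mice. The list summed to 7.13 to 7.42 in TSA-treated, 8.68 to 9.10 in untreated diabetic and 9.52 to 9.58 in untreated non-diabetic mice.

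Genes related to the members were counted as a comparison. The 4 lists of them held 64 genes, 45 of them measured, on 44 probe sets. In untreated diabetic against untreated non-diabetic mice 3 of the 44 were called higher and none lower, and 2 were called higher and none lower when TSA-treated mice were set against the same group. Over all probe sets 0.0866% and 0.0577% were called higher in these comparisons. Between TSA-treated and untreated diabetic mice none was called. At an unadjusted p under 0.05, limma gave 8 in each comparison. The share of all probe sets under that p was not counted. Nothing is therefore read from this number or from such counts for each list below. Every called probe set belonged to the list that activates or inhibits the pancreatic zymogens.

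Of 15 genes for the breakdown of starch, glycogen and disaccharides outside the amylases of the members, 10 were measured and none was called in any comparison by limma, with 1, 1 and 0 at an unadjusted p under 0.05 in the order of the comparisons just given. Their median difference was 0.08 in untreated diabetic over untreated non-diabetic mice, -0.02 in TSA-treated over untreated non-diabetic mice and -0.17 in TSA-treated over untreated diabetic mice. Over all probe sets these medians were 0.01, 0.05 and 0.02. Gaa, the lysosomal enzyme that degrades glycogen and the highest gene of the list, averaged 7.31 ± 0.16 in TSA-treated, 7.59 ± 0.46 in untreated diabetic and 7.89 ± 0.05 in untreated non-diabetic mice.

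Of 21 other metallocarboxypeptidases, 17 were measured and none was called by limma, with 2, 1 and 2 at an unadjusted p under 0.05 in the same order. Agbl5, a deglutamylase of tubulin and the gene of this list with the highest mean, read 7.30 and 8.43 in TSA-treated, 7.15 and 7.39 in untreated diabetic and 7.73 and 6.52 in untreated non-diabetic mice, with overlap between all groups. Cpa3, the carboxypeptidase A of mast cells, averaged 3.78 ± 0.25 in TSA-treated, 3.64 ± 0.12 in untreated diabetic and 3.39 ± 0.15 in untreated non-diabetic mice, near background. Cpd, which trims peptides in the trans-Golgi network and was picked after its values were seen, read 7.51 and 7.80 in TSA-treated, 6.19 and 6.77 in untreated diabetic and 5.80 and 5.54 in untreated non-diabetic mice. Its TSA-treated arrays were highest, and its difference of 1.98 ± 0.25 over untreated non-diabetic mice did not pass (adjusted p = 0.092 from limma).

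The ribonuclease A family and its inhibitor gave 9 measured genes of 18, none called by limma, with 0, 1 and 1 at an unadjusted p under 0.05 in that order. Their differences, untreated diabetic minus untreated non-diabetic, ran from -0.26 to 0.27, against 5.38 for Rnase1. Rnh1, the cytosolic inhibitor that binds ribonucleases of this family, averaged 7.25 ± 0.39 in TSA-treated, 7.88 ± 0.17 in untreated diabetic and 7.91 ± 0.21 in untreated non-diabetic mice, within the spread of the duplicates for the untreated groups. Rnase4, another enzyme of the family, averaged 6.52 ± 0.25 in TSA-treated, 6.67 ± 0.05 in untreated diabetic and 6.93 ± 0.12 in untreated non-diabetic mice.

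The genes that act on the carboxypeptidase zymogens were called in part. Prss2 is on the authors' list of genes raised in untreated diabetic spleens, drawn from these arrays, and Prss2 and Spink1 are also among the acinar markers. Their adjusted p-values are therefore given as a description. Prss2, a trypsinogen whose active form cleaves procarboxypeptidases, read 10.02 and 9.77 in TSA-treated, 12.01 and 12.03 in untreated diabetic and 6.09 and 6.17 in untreated non-diabetic mice. It was 5.89 ± 0.17 higher in untreated diabetic mice (adjusted p = 0.000213 from limma) and 3.77 ± 0.17 higher in the TSA-treated group (limma adjusted p = 0.00299), both over untreated non-diabetic mice. Spink1, the trypsin inhibitor packed into the same granules, read 5.91 and 6.36 in TSA-treated, 7.68 and 7.60 in untreated diabetic and 2.78 and 2.89 in untreated non-diabetic mice. It was 4.81 ± 0.20 and 3.30 ± 0.20 higher in the same comparisons (adjusted p = 0.000902 and 0.00781 from limma). A probe set shared by the trypsinogens Try4 and Try5 was 6.92 ± 0.63 higher in untreated diabetic mice (adjusted p = 0.0416 from limma), and its TSA-treated arrays, at 10.35 and 8.25, were 2.10 apart.
Lxn, a cytosolic inhibitor of carboxypeptidases A, averaged 6.04 ± 0.08 in TSA-treated, 6.41 ± 0.34 in untreated diabetic and 6.25 ± 0.16 in untreated non-diabetic mice, and Tmprss15, the gut protease that activates trypsinogen, reached at most 3.30 on any array. Neither passed the test in any comparison. For the trypsinogen Prss1 the only probe set also names Prss3, Gm10334 and Gm5771, so its signal cannot be assigned to 1 gene. Neither it nor the probe set of Prss3 alone was called. They lay 3.24 ± 0.33 and 1.78 ± 0.17 higher in untreated diabetic than in untreated non-diabetic mice (limma adjusted p = 0.0728 and 0.0504).

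**Figure D3:**
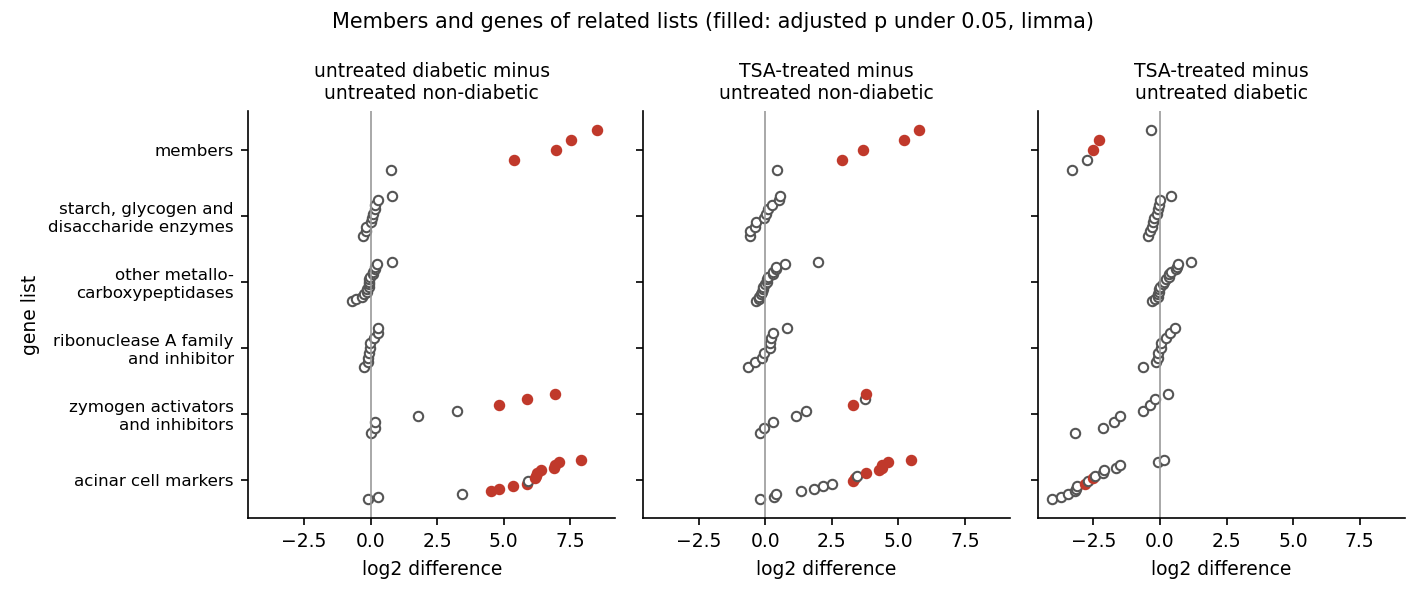
Log2 difference (horizontal axis) of each measured probe set in the members, in 4 lists of related genes and in the acinar cell markers, in the 3 comparisons, with filled points for an adjusted p under 0.05 from limma. The starch, carboxypeptidase and ribonuclease lists stay between -0.70 and 1.98 and hold no filled point, and the zymogen list, which shares Prss2 and Spink1 with the acinar markers, holds 3 filled points in the first panel, 2 in the second and 0 in the third.

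The profiles of the members over the arrays were set beside those of all other probe sets, as a description of the same levels that chose the genes. Each probe set was centred on its mean over the 6 arrays, and likeness was measured as the root mean square (RMS) distance on the log2 scale. From the mean of the 4 pancreatic members, Cpa1 lay at 0.34, Cpb1 at 0.36, Amy2a at 0.66, Rnase1 at 0.77 and Amy1 at 2.63. The 10 nearest of the probe sets that name 1 gene lay at 0.18 to 0.48, closer to that mean than Amy2a and Rnase1 themselves. They were Sycn, a zymogen granule protein, at 0.18, Zg16, a lectin of the granule membrane, at 0.18 and 0.44 with 2 probe sets, Cela3b, an elastase, with 3 at 0.24 to 0.33, Prss2 at 0.26, 2210010C04Rik at 0.41, Reg1, a secreted lectin, at 0.47 and Ctrl, a chymotrypsin, at 0.48. These 6 arrays come from 3 pools, so the distance is mostly one between 3 pool means. The 5 probe sets nearest to Amy1, namely 3110009E18Rik, Coq3, Nek6, Rmdn1 and Dleu2, lay at 0.10 to 0.13 and included no gene of the pancreas lists.

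**Figure D4:**
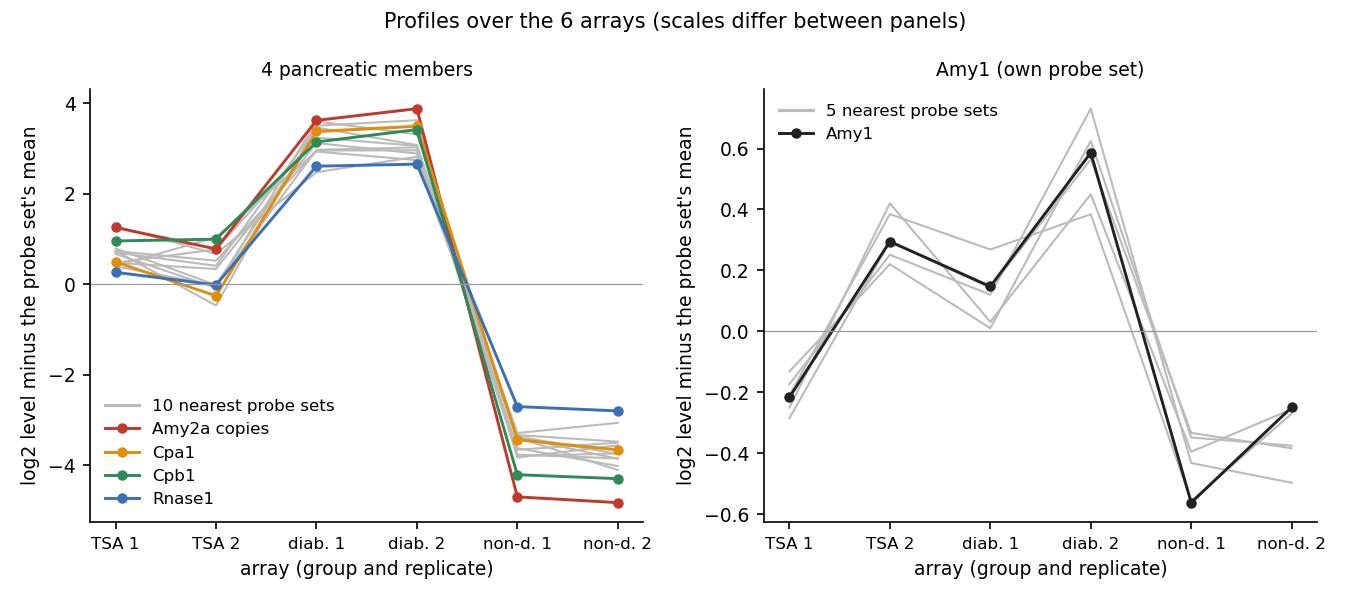
Log2 level minus the mean of each probe set over the 6 arrays (vertical axis), by array (horizontal axis), for the 4 pancreatic members with their 10 nearest probe sets and for Amy1 with its 5 nearest, on different scales. In the left panel every line is highest on the untreated diabetic and lowest on the untreated non-diabetic arrays, and in the right panel the Amy1 line spans 2.05 to 3.20 in level and its TSA-treated arrays fall on both sides of its mean.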

How the data were processed

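Spleen RNA was measured on 6 arrays, 2 per group. The deposited values are log2 levels that the authors obtained by quantile normalization and Robust Multi-array Average (RMA) summarization, with S-Plus 6.2 and S+Array Analyzer 2.0.1. RMA compresses changes of dim probe sets. The table holds 45101 probe sets, of which 64 controls were left out of the tests. No filter on level was applied. A single limma fit (version 3.58.1, R 4.3.3) took in the 6 arrays with a mean for each group (3 residual and 2.94 prior degrees of freedom), and p-values were adjusted by Benjamini-Hochberg over 45037 probe sets. The fit was tested on simulated data with 200 planted probe sets. Where a gene had several probe sets, the brightest one naming it alone stood for it, or else the brightest joint one. The genes named were all members, up to 4 called genes and the highest gene of each list, and the nearest profiles; Cpd, Rnase4, Lxn, Tmprss15, Prss1 and Prss3 were added after their values were seen. Members and lists were chosen with earlier results of these data known. Alternatives were a replicate block, the methods' t-test, the local pooled error (LPE) test, limma with an intensity trend, median centring, repeated quantile normalization, a filter on dim probe sets, the mean of a gene's probe sets, the 2 groups fitted alone, and leaving out each array. Same-numbered arrays share only a number. Probes were named from GEO's platform annotation, and 34945 probe sets name 1 gene, 932 several and 9160 none. Promoters were matched by symbol.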

Additional observations from a re-analysis of the deposited data

How the results depend on the processing

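Most alternatives use the same group means for the 4 pancreatic members, so directions were fixed there. Median centring, repeated quantile normalization and leaving out an array can alter the differences, and turned none of these members. Their median difference in TSA-treated minus untreated diabetic mice was -2.81 to -2.43 with single arrays left out. Counts of called genes moved more. For untreated diabetic against untreated non-diabetic mice, the methods' t-test after Benjamini-Hochberg called 0 members and 0 pathway probe sets. Pathway counts were 8 with that t-test unadjusted, 5 with LPE, 5 with an intensity trend and 6 with the mean of a gene's probe sets, against 3. Of all 45037 probe sets, the adjusted t-test called 1, the unadjusted one 2667, LPE 595 and the intensity trend 49, against 40. The mean of a gene's probe sets called 36 of 19337 genes. Between TSA-treated and untreated non-diabetic mice, the adjusted t-test called 0 members and 0 pathway probe sets. The pathway count was 11 with the unadjusted t-test and 6 with LPE, against 2. Over all probe sets the adjusted t-test called 2, the unadjusted one 5241 and LPE 1615, against 31. Member and pathway counts also changed with single arrays left out. Between TSA-treated and untreated diabetic mice, where 2 members were called, the count was 0 with the adjusted t-test, median centring or the 2 groups fitted alone, and 4 with the unadjusted t-test, LPE, the dim filter or the mean of a gene's probe sets. The settings with 0 members called no probe set at all. Over all probe sets the unadjusted t-test called 1359, LPE 58 and repeated quantile normalization 14, against 12. The dim filter called 22 of 22518 probe sets and the mean of a gene's probe sets 29 of 19337 genes. Pathway counts were 5 with the unadjusted t-test, 2 with LPE and 1 each with repeated quantile normalization, the dim filter and the mean of a gene's probe sets, against 0. Member and pathway counts changed here too with single arrays left out. The cause of the changed counts was not tested. LPE also called Amy1 higher in untreated diabetic than in untreated non-diabetic mice, 5 members in all, and median centring dropped Cpa1 from the members called higher in TSA-treated than in untreated non-diabetic mice, which left 3. A block for the replicate number gave 0 called members in TSA-treated against untreated diabetic mice and changed no other member count. The numbers are no pairing in the design. Deviations of same-numbered arrays correlated at -0.105 between the TSA-treated and untreated diabetic, -0.04 between the TSA-treated and untreated non-diabetic, and -0.34 between the 2 untreated groups. Over all probe sets the untreated diabetic duplicates correlated at 0.973 with each other. Replicate 1 of them correlated at 0.987 and 0.985 with the untreated non-diabetic arrays, and replicate 2 at 0.990 with TSA-treated replicate 1. Only the untreated non-diabetic duplicates, at 0.993, were each other's nearest arrays. The cause was not tested. A crossed block, added after seeing the data, also gave 0 called members in TSA-treated against untreated diabetic mice. Depth has no counterpart on arrays. Signal over background limits Amy1 on every array and the untreated non-diabetic levels of Cpb1 and Amy2a, and 2 arrays of 1 pool give no estimate of variation between mice.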
